A study of Homo sapiens with 6 samples.

Results

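Genes switched on by hypoxia-inducible factor 1 (HIF-1) were followed in 6 averaged expression profiles of HEK293 derivatives. A list of 10 genes was taken by symbol, namely LOX, BHLHE40, BNIP3, BNIP3L, NDRG1, EGLN1, VEGFA, ADM, PDK1 and KDM3A, and a gene counted as measured where an array row carried its symbol and no other. By that rule 9 of the 10 genes were measured, each by 1 row, out of 12448 genes measured in the series. EGLN1 was left out because its row also carries SCAND2P. All 9 rows passed the filter on low values.

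HIF-1 is a pair of proteins, HIF1A and ARNT, that binds DNA and switches on genes for life at low oxygen. In normal oxygen, prolyl hydroxylases such as EGLN1 mark HIF1A for destruction by the VHL ubiquitin ligase. APE1, the product of APEX1, is an endonuclease of base excision repair, and it also has a redox role, in which it reduces cysteines of transcription factors, HIF-1 among them, and favours their binding to DNA.

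The cells were 3 lines derived from HEK293, a human embryonic kidney line. The ubAPE1 line carries an inducible fusion of ubiquitin to APE1, the wtAPE1 line an inducible wild-type APE1, and the vector line (HEK293/pcDNA-FRT empty vector) no transgene. Each line was profiled with doxycycline (2 µg per ml for 16 h), the drug that turns on a tet-on transgene, and without it, and the medium of all lines held puromycin (1 µg per ml). Each of the 6 groups is 1 column of log2 levels, which the authors averaged from 3 biological replicates, so the spread between replicates is not known. The p-values on centred columns set the size of a difference against 1 spread pooled over all rows, so they measure neither the spread between replicates nor how even a gene's difference was over the doxycycline states. Whether a line is 1 clone is not given in the sources used here, and a difference between lines that is present without doxycycline cannot be told apart from the derivation of the line.

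The labels were checked on APEX1, whose level stood at 10.58 log2 with and 9.82 without doxycycline in the ubAPE1 line, 10.67 and 9.50 in the wtAPE1 line, against 9.66 and 9.54 for the vector line. The columns were shifted against each other as a whole. The median shift of the kept rows against the vector line was -0.11 log2 for the ubAPE1 and -0.18 for the wtAPE1 line, and with doxycycline it was -0.17, 0.08 and -0.06 in the ubAPE1, wtAPE1 and vector lines. Differences are therefore given after each column was centred on that median, and levels are given as deposited. Of 12 kidney and epithelial markers, 8 were measured above the filter, and their mean level was 6.43 and 6.41 log2 in the ubAPE1 line (with and without doxycycline), 6.42 and 6.43 in the wtAPE1 line, against 7.10 and 7.06 for the vector line. CDH1 and CDH16 lay under the filter. EPCAM (-2.95 log2 in the ubAPE1 and -2.98 in the wtAPE1 line), KRT19 (-0.86 and -0.82) and LRP2 (-0.77 and -0.74) were lower in both APE1 lines than in the vector line by limma. The other 5 did not pass, and 4 of the 8 lay above 0 on centred columns in each contrast, with list medians of -0.18 log2 for ubAPE1 and -0.15 for wtAPE1. Of 4 neuronal markers above the filter, ENO2 and NEFL were lower in both APE1 lines and SYP was higher in the ubAPE1 line. In the APE1 lines EPCAM (4.90 to 5.30 log2), LRP2 (4.84 to 5.11) and ENO2 (4.96 to 5.27) lay around the filter value of 5.03 log2. Whether low signal limited the size of their differences was not tested. Of 4 fibroblast and smooth muscle markers COL3A1 was higher in both, and neither of the 2 blood cell markers passed. On the values as deposited, limma no longer called COL3A1 (adjusted p = 0.167 in the ubAPE1 and 0.106 in the wtAPE1 line). There it also lost the ubAPE1 calls of SYP (adjusted p = 0.438), NEFL (0.0647) and LRP2 (0.0609). The part of these shifts in the results below was not tested. Fewer cells of a type and less RNA per cell cannot be told apart in such profiles.

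The members that differed between the lines, and BNIP3, which had the lowest doxycycline response in the ubAPE1 line, are shown by the stretch of genome around their start, because HIF-1 often binds near gene starts. The windows are RefSeq's, on GRCh38.p14, and run from 250 bases before the gene start to 50 bases after it. Letters in capitals mark the core of the HIF-1 binding site, ACGTG or GCGTG, on either strand, so that CACGT and CACGC are the same cores read from the other side. An overlapping pair in CACGTG counts as 2 matches.
LOX (chr5:122078210-122078509, minus strand): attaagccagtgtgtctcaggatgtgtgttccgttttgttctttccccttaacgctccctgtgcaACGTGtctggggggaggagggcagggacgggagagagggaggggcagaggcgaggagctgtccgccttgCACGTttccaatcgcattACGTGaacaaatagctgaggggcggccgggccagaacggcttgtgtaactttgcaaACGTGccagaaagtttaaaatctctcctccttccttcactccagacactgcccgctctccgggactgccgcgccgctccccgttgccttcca
BHLHE40 (chr3:4979187-4979486, plus strand): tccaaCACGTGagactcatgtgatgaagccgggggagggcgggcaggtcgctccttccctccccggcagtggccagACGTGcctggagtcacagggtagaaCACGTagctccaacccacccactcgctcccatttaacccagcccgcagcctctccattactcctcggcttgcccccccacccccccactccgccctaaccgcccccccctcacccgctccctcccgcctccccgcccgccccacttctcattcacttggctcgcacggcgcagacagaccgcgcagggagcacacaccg
PDK1 (chr2:172555840-172556139, plus strand): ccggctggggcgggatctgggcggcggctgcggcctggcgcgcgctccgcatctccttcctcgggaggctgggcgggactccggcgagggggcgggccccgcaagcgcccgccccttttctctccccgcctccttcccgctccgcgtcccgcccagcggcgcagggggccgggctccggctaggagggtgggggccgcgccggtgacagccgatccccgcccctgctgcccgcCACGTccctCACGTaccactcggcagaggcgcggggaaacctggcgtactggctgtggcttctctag
BNIP3 (chr10:131981874-131982173, minus strand): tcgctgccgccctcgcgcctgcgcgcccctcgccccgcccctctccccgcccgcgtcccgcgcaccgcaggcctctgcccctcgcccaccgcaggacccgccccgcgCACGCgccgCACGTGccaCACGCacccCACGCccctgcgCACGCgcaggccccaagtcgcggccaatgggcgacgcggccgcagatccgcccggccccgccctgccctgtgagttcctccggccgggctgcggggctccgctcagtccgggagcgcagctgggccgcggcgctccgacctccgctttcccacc

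RefSeq windows were found for 6 members, LOX, BHLHE40, PDK1, BNIP3, ADM and KDM3A. The printed LOX window held 4 matches, all of ACGTG, beginning 185, 116, 98 and 42 bases before the gene start. The BHLHE40 window also held 4 matches of ACGTG, beginning 245, 244, 174 and 149 bases before the start, of which the first 2 form 1 CACGTG. Of 35116 windows of 300 bases in the RefSeq table, 4.40% held 4 or more matches and 7.26% held CACGTG. The printed PDK1 window held 2 matches, beginning 17 and 8 bases before the start, against 23.1% of all windows with 2 or more, and the other PDK1 window held 0. BNIP3 had 6 matches, 2 of ACGTG and 4 of GCGTG,, and 0.923% of all windows held 6 or more. The ADM window held 1 match. Each of the 2 KDM3A windows held 1, which is the same site, since the windows overlap. LOX had 2 further windows with 2 matches each, and these windows also overlap and hold the same 2 sites. At least 1 match was present in 48.5% of all windows.

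LOX and BHLHE40 were lower in both APE1 lines, with and without doxycycline. Lysyl oxidase, the product of LOX, cross-links collagen and elastin outside the cell. Its level was 5.17 log2 with and 5.37 without doxycycline in the ubAPE1 line, 5.39 and 5.08 in the wtAPE1 line, against 6.34 and 6.31 for the vector line. The 4 columns of the APE1 lines lay together, close to the filter value of 5.03 log2, and both vector columns lay well above them. Whether low signal limited the difference of LOX was not tested. On centred columns its difference from the vector line was -0.94 ± 0.18 log2 for ubAPE1 (SE, 1.92-fold lower, limma adjusted p = 1.14e-05), made up of -0.997 with and -0.887 without doxycycline. For wtAPE1 it was -0.92 ± 0.18 log2 (SE, 1.89-fold lower, limma adjusted p = 2.24e-05), made up of -0.843 and -0.987.

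BHLHE40 encodes a basic helix-loop-helix repressor that takes part in the circadian clock. Its level was 6.08 log2 with and 6.29 without doxycycline in the ubAPE1 line, 6.10 and 6.08 in the wtAPE1 line, against 7.09 and 7.25 for the vector line. The groups of the APE1 lines and of the vector line did not overlap. The difference of BHLHE40 from the vector line was -0.87 ± 0.18 log2 for ubAPE1 (SE, 1.83-fold lower, limma adjusted p = 7.42e-05) and -0.90 ± 0.18 for wtAPE1 (SE, 1.87-fold lower, limma adjusted p = 3.15e-05). The differences were -0.84 with and -0.90 without doxycycline in the ubAPE1 line, and -0.89 and -0.92 in the wtAPE1 line. Its residual SD of 0.0226 log2 around the fit was smaller than that of most rows (percentile 1.53).

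PDK1, pyruvate dehydrogenase kinase, phosphorylates and so slows the enzyme complex that feeds pyruvate into mitochondria. Its level was 7.16 log2 with and 7.85 without doxycycline in the ubAPE1 line, 7.37 and 7.22 in the wtAPE1 line, against 8.34 and 8.23 for the vector line. Both vector columns were the highest, and the ubAPE1 column without doxycycline lay between them and the other 3. The difference of PDK1 from the vector line was -0.67 ± 0.18 log2 for ubAPE1 (SE, limma adjusted p = 0.00639) and -0.81 ± 0.18 for wtAPE1 (SE, limma adjusted p = 2.82e-04). These calls were lost on the values as deposited, with limma adjusted p = 0.172 in the ubAPE1 and 0.0677 in the wtAPE1 line. In the ubAPE1 line the difference was -1.02 log2 with doxycycline and -0.32 without it.

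**Figure D1:**
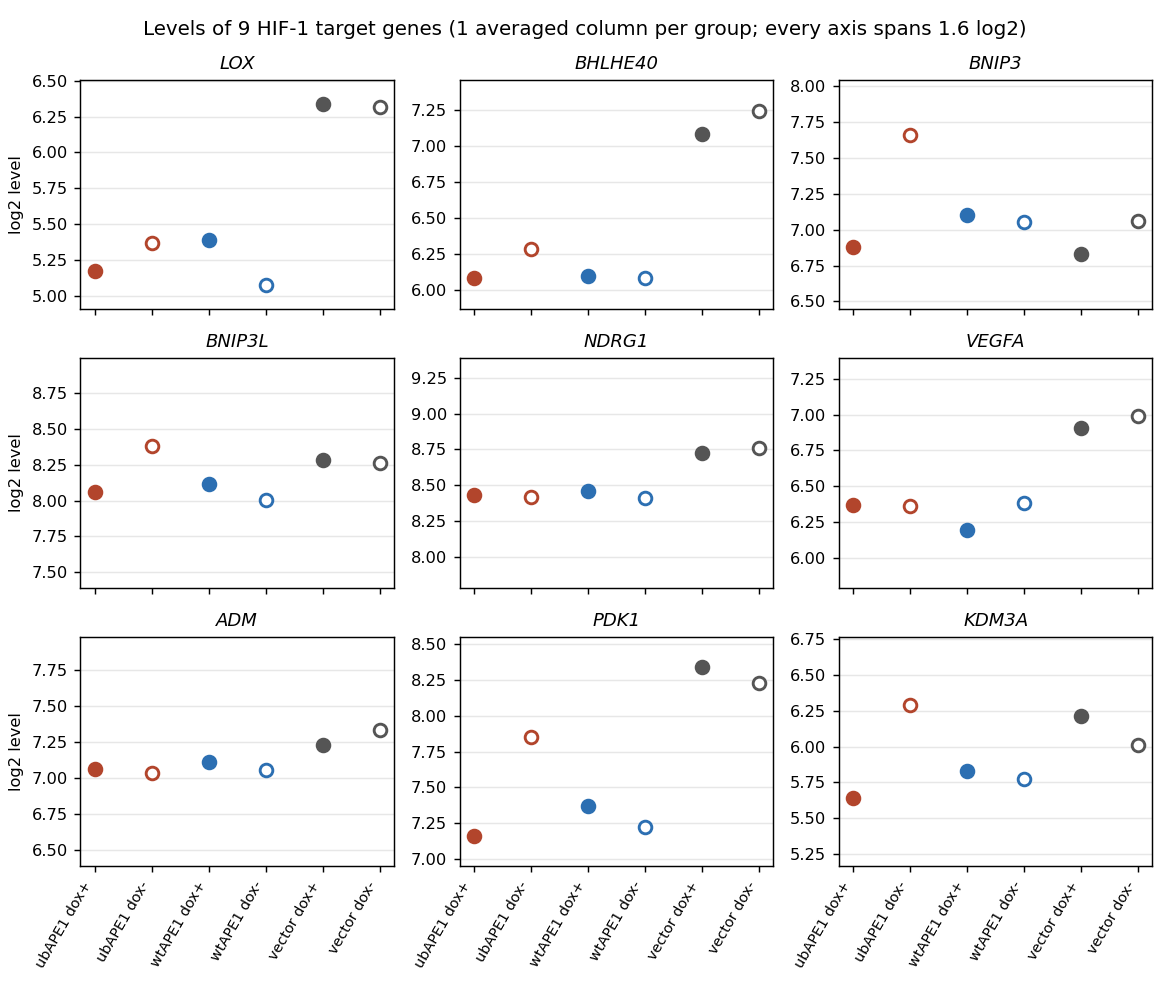
Deposited log2 levels of the 9 genes in the 6 groups, with 1 averaged column per group and therefore no error bar. Filled points are with and open points without doxycycline, and every axis spans the same range. LOX, BHLHE40, VEGFA and PDK1 lie higher in both vector columns than in the 4 columns of the APE1 lines, and BNIP3 is highest in the ubAPE1 line without doxycycline, at 7.66.

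VEGFA, the main growth factor for blood vessels, had a level of 6.37 log2 with and 6.37 without doxycycline in the ubAPE1 line, 6.19 and 6.38 in the wtAPE1 line, against 6.91 and 6.99 for the vector line. All 4 columns of the APE1 lines lay under both vector columns. The difference was -0.47 ± 0.18 log2 in the ubAPE1 line (SE, limma adjusted p = 0.124) and -0.48 ± 0.18 in the wtAPE1 line (SE, limma adjusted p = 0.0858), so it did not pass. With the trend on gene length removed, as described below, it passed in both, at -0.58 log2 (limma adjusted p = 0.0221) and -0.57 log2 (limma adjusted p = 0.0228).

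NDRG1 and ADM lay slightly lower in the APE1 lines as deposited. NDRG1, a cytoplasmic protein of stress and differentiation, had 8.43 log2 with and 8.42 without doxycycline in the ubAPE1 line, 8.46 and 8.41 in the wtAPE1 line, against 8.73 and 8.76 for the vector line. The columns did not overlap, but the centred difference was only -0.21 log2 in the ubAPE1 line (95% interval -0.56 to 0.14) and -0.13 in the wtAPE1 line (-0.48 to 0.22). ADM, which encodes the vessel-widening peptide adrenomedullin, had 7.06 log2 with and 7.04 without doxycycline in the ubAPE1 line, 7.11 and 7.05 in the wtAPE1 line, against 7.23 and 7.33 for the vector line. Its centred difference was -0.12 log2 in the ubAPE1 line (95% interval -0.47 to 0.23) and -0.02 in the wtAPE1 line (-0.37 to 0.33). Neither gene passed the test in either line.

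BNIP3 was the member with the highest centred line difference. BNIP3 and BNIP3L encode related proteins of the outer mitochondrial membrane that mark mitochondria for removal by autophagy. BNIP3 had a level of 6.88 log2 with and 7.66 without doxycycline in the ubAPE1 line, 7.10 and 7.05 in the wtAPE1 line, against 6.83 and 7.06 for the vector line. One column, the ubAPE1 line without doxycycline, stood apart and the other 5 lay close together. The difference was 0.43 ± 0.18 log2 in the ubAPE1 line (SE, limma adjusted p = 0.181) and 0.31 ± 0.18 in the wtAPE1 line (SE, limma adjusted p = 0.311), neither of which passed.

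BNIP3L had 8.06 log2 with and 8.38 without doxycycline in the ubAPE1 line, 8.12 and 8.01 in the wtAPE1 line, against 8.28 and 8.26 for the vector line. KDM3A, a demethylase of lysine 9 of histone H3 and so a chromatin regulator, had 5.64 log2 with and 6.29 without doxycycline in the ubAPE1 line, 5.83 and 5.77 in the wtAPE1 line, against 6.21 and 6.01 for the vector line. For both genes the ubAPE1 line without doxycycline was the highest column and the ranges of the ubAPE1 and vector lines overlapped. The line differences of BNIP3L were 0.06 log2 in the ubAPE1 line (95% interval -0.29 to 0.41) and -0.03 in the wtAPE1 line (-0.38 to 0.32), and those of KDM3A were -0.04 (-0.38 to 0.31) and -0.14 (-0.48 to 0.21).

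Over the 9 members, LOX, BHLHE40 and PDK1 were lower in each APE1 line than in the vector line, 6 did not pass in either line, and 0 were higher. Among all 11619 rows tested, 3.55% were lower in the ubAPE1 and 4.03% in the wtAPE1 line, and 4.64% and 5.65% passed in either direction. The members were chosen with earlier results of these data known. The shares of all rows in this report are therefore a description and no test of an excess among them. On the values as deposited, LOX and BHLHE40 passed in each line, against 1.31% of all rows lower in the ubAPE1 and 2.01% in the wtAPE1 line. The median difference of the 9 members was -0.21 log2 in the ubAPE1 and -0.14 in the wtAPE1 line, against 0.03 for all rows in each of the 2 contrasts. Both centred columns of the ubAPE1 line lay under both of the vector line for 6 of 9 members, against 18.5% of rows, and those of the wtAPE1 line for 5 of 9, against 25.8% of rows. BNIP3 lay above in both lines, 1 of 9, against 24.5% of rows for ubAPE1 and 35.6% for wtAPE1. As deposited the members below were 6 of 9 for ubAPE1, against 28.02% of rows, and 8 of 9 for wtAPE1, against 47.9% of rows. There 0 of 9 lay above in either line, BNIP3 included, against 13.1% of rows for ubAPE1 and 16.4% for wtAPE1. The 2 contrasts share the vector columns, so they are not independent of each other.

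**Figure D2:**
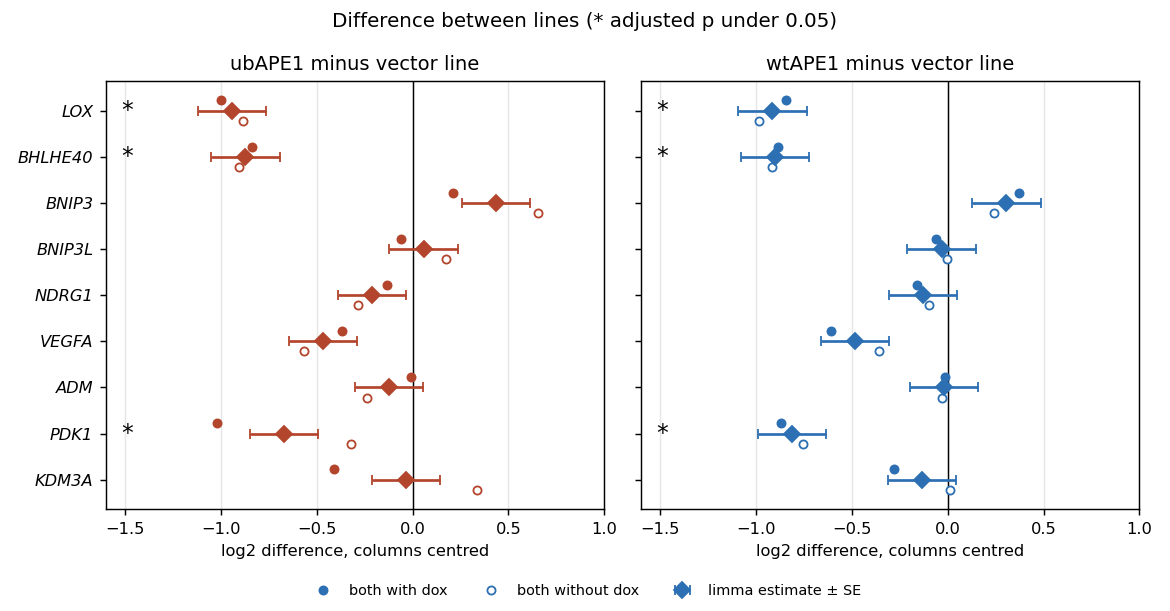
Differences of the ubAPE1 line (left) and the wtAPE1 line (right) from the vector line, in log2 on centred columns. Diamonds are limma estimates with bars of 1 SE, and small points are the differences with (filled) and without (open) doxycycline. LOX and BHLHE40 lie near -0.9 in both lines and both states, whereas the 2 states of PDK1 and KDM3A lie apart in the ubAPE1 line.

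The ubAPE1 and wtAPE1 lines were then set against each other. None of the 9 members passed, against 0.00861% of all rows lower and 0.00% higher (1 row and 0 rows of 11619 in limma, and 105 rows with an unadjusted p under 0.05). The differences, ubAPE1 minus wtAPE1, ran from -0.10 log2 for ADM to 0.14 for PDK1. For LOX it was -0.03 log2 (95% interval -0.38 to 0.32) and for BHLHE40 0.03 (-0.32 to 0.38). In the order of levels, the APE1 lines were neighbours for LOX and BHLHE40 and did not differ beyond the spread, and both stood below the vector line.

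Doxycycline was then tested over all lines. The common effect over the 3 lines ran from -0.27 ± 0.15 log2 (SE) for BNIP3 to 0.09 ± 0.15 for LOX, and 0 of 9 members passed in limma, against 0.0775% of all rows in either direction. The term for an induced transgene beyond doxycycline called 0 of 9 members and 0.00% of all rows, with 219 of 11619 rows at an unadjusted p under 0.05. Its values ran from -0.52 log2 for KDM3A (95% interval -1.18 to 0.14) and -0.41 for PDK1 (-1.07 to 0.26) to 0.12 for ADM. The SE of this term was 0.34 log2. APEX1, the induced gene, was itself not called by this term, at 0.82 ± 0.34 log2 (SE). The count of 0 members therefore does not show that induction left them unchanged.

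Within the ubAPE1 line, BNIP3, PDK1 and KDM3A had the lowest responses of the 9 members, with no test possible between single columns. With doxycycline minus without it, on centred columns, BNIP3 responded by -0.61 log2 (1.53-fold lower), PDK1 by -0.52 and KDM3A by -0.48, and BNIP3L by -0.15. They ranked 254, 518, 674 and 3266 from the lowest of 11619 rows. In the wtAPE1 line the same genes responded by -0.04, 0.06, -0.03 and 0.03 log2, and in the vector line by -0.17, 0.18, 0.27 and 0.08. BNIP3 was the member at least 1.5-fold lower in the ubAPE1 line, 1 of 9, against 2.75% of all rows. This count depended on the centring. As deposited BNIP3 (-0.78 log2), PDK1 (-0.69) and KDM3A (-0.65) were all past 1.5-fold lower. There 1039 of 11619 rows were past it in either direction, and the share of lower rows alone was not counted. The median row itself moved by -0.17 log2 in that response as deposited. In the wtAPE1 and vector lines 0 of 9 members were at least 1.5-fold lower, against 0.482% and 0.516% of rows, and 0 were that much higher in any of the 3 lines, against 1.71%, 0.448% and 0.379% in the ubAPE1, wtAPE1 and vector lines.

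The ubAPE1 line without doxycycline was the highest of the 6 centred columns for BNIP3, BNIP3L and KDM3A, 3 of 9 members, against 15.2% of all rows. The vector line held the highest column for the other 6, with doxycycline for LOX, NDRG1 and PDK1 (18.5% of rows) and without it for BHLHE40, VEGFA and ADM (14.6% of rows). The remaining columns were highest for 0 members, against 23.4% of rows for ubAPE1 with doxycycline, and 8.09% with and 20.1% without it for wtAPE1. The lowest column was ubAPE1 with doxycycline for PDK1 and KDM3A (18.6% of rows) and ubAPE1 without it for NDRG1 and ADM (15.8% of rows). It was wtAPE1 with doxycycline for BHLHE40 and VEGFA (7.08% of rows), wtAPE1 without it for LOX and BNIP3L (18.0% of rows), and vector with doxycycline for BNIP3 (19.9% of rows).

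The ubAPE1 response also went with the length of genes. In 4 classes of genomic length its median was 0.21 log2 in the shortest, which holds BHLHE40 and ADM, then 0.09 in the class of LOX, BNIP3 and VEGFA, -0.05 in that of BNIP3L, NDRG1 and KDM3A, and -0.12 in the longest, which holds PDK1 (169 kb). From shortest to longest the 4 medians were -0.07, -0.03, 0.03 and 0.03 for wtAPE1 cells. For vector cells they were -0.02, 0.01, 0.03 and 0.05. With the trend removed, the ubAPE1 responses were -0.66 log2 for BNIP3, -0.34 for PDK1 and -0.38 for KDM3A, and ADM turned from 0.19 to -0.06.

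Responses lay under 0 for 6 of 9 members in the ubAPE1 line, 6 in the wtAPE1 line and 4 in the vector line, against 45.4%, 52.3% and 46.1% of all rows. The members not yet described had small responses of both signs. LOX responded by -0.03 log2 in the ubAPE1, 0.23 in the wtAPE1 and 0.08 in the vector line. BHLHE40 responded by -0.03, -0.07 and -0.10 in that order of lines. VEGFA responded by 0.17, -0.27 and -0.02, and its wtAPE1 value was the lowest of the 9 members in that line. NDRG1 responded by 0.18, -0.03 and 0.03, and ADM by 0.19, -0.03 and -0.04. These values lie inside the middle 95% of all rows, which ran from -0.59 to 0.54 log2 in the ubAPE1 line, -0.38 to 0.41 in the wtAPE1 line and -0.39 to 0.39 in the vector line.

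**Figure D3:**
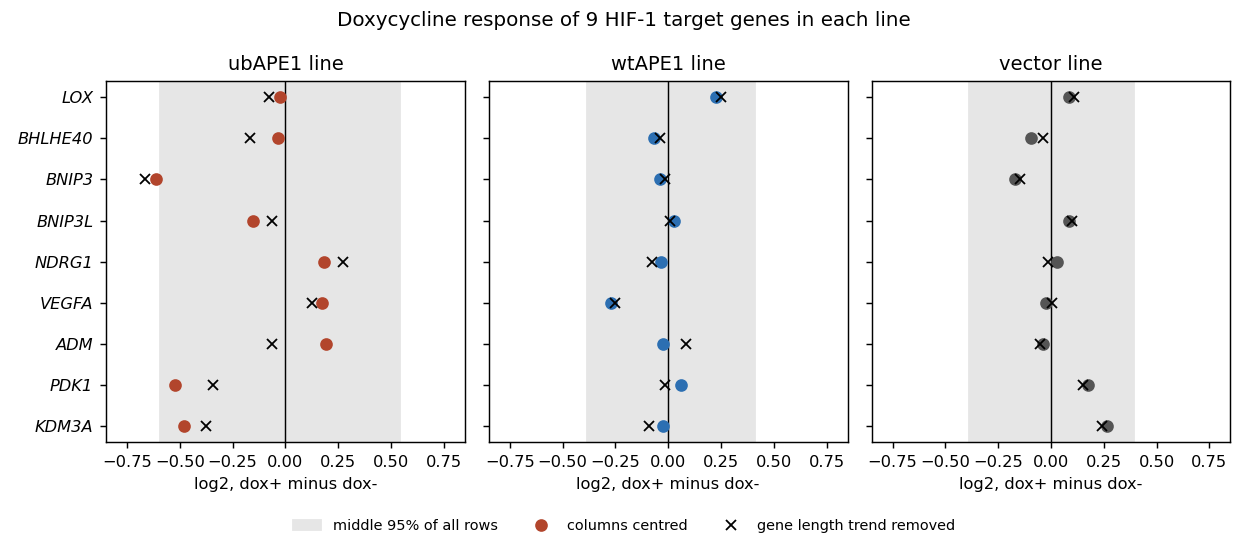
Doxycycline responses (with minus without, log2, columns centred) of the 9 genes in the ubAPE1, wtAPE1 and vector lines. Circles are the centred values, crosses the values with the gene length trend removed, and the grey band the middle 95% of all rows of that line. BNIP3 lies just outside the band in the ubAPE1 line, at -0.61, and all other circles lie inside.

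Set against the other lines, the ubAPE1 response minus the vector response was -0.75 log2 for KDM3A and -0.70 for PDK1. These were 2 of 9 members at least 1.5-fold lower, against 8.31% of rows, and 0 of 9 were that much higher, against 4.64% of rows. For BNIP3 the difference was -0.44. The ubAPE1 response minus the wtAPE1 response was -0.59 log2 for PDK1, -0.57 for BNIP3 and -0.45 for KDM3A. PDK1 was past 1.5-fold (1 of 9, against 6.15% of rows lower), and 0 of 9 were that much higher, against 5.78% of rows. With the gene length trend removed PDK1 had -0.33 log2, and BNIP3, at -0.65, was past 1.5-fold in its place. For the wtAPE1 response minus the vector response, the members ran from -0.29 for KDM3A to 0.14 for LOX, none past 1.5-fold, against 1.82% of rows lower and 2.09% higher. No test of these differences was possible with 1 column a group.

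The members did not move as 1 group over the 6 columns. On centred columns LOX went with BHLHE40 (Pearson r = 0.97 over 6 columns) and with PDK1 (r = 0.90), and BHLHE40 with VEGFA (r = 0.93). BNIP3 ran opposite to NDRG1 (r = -0.96), and BNIP3L to ADM (r = -0.91). These are descriptions over columns that share lines. Among 2058 gene rows that spanned at least 1.5-fold, 211 had r of 0.95 or more with LOX, 209 with BHLHE40 and 181 with PDK1. The rows most like LOX were SH2D4A (r = 0.997), ANKH (0.996), which encodes a transporter for pyrophosphate, and RBBP7 (0.996), a histone-binding protein. Those most like BHLHE40 were TPD52L1 (r = 0.998), the glycine-cleaving enzyme gene GLDC (0.998) and DUSP6 (0.997), which encodes a phosphatase that dampens ERK signalling. Those most like PDK1 were UBE2J1 (r = 0.997), a ubiquitin-conjugating enzyme of the endoplasmic reticulum, ARHGAP29 (0.997) and PDLIM5 (0.997).

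Genes for the proteins that make and control HIF-1 did not pass in any line contrast. Of 16 genes listed for the HIF system, 11 were measured above the filter, and 0 were called in any of the 5 tests. Against the vector line 4.64% of all rows passed in the ubAPE1 and 5.65% in the wtAPE1 line. At such shares a count of 0 among 11 genes says little about them. HIF1A, the oxygen-regulated subunit, had 8.20 log2 with and 8.51 without doxycycline in the ubAPE1 line, 8.44 and 7.91 in the wtAPE1 line, against 8.56 and 8.77 for the vector line. Its line difference was -0.19 ± 0.18 log2 in the ubAPE1 (SE, limma adjusted p = 0.714) and -0.31 ± 0.18 in the wtAPE1 line (SE, limma adjusted p = 0.298). CITED2, which competes with HIF1A for coactivators, had -0.30 and -0.31 in the same contrasts, and passed in the wtAPE1 line with the gene length trend removed (limma adjusted p = 0.0489). The median of the list was -0.14 log2 in the ubAPE1 and -0.09 in the wtAPE1 line. HIF-1 is controlled mainly through the stability and activity of its protein, which these RNA levels do not measure.

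Among further hypoxia targets a minority was lower in both APE1 lines. Of 31 listed, 23 were measured above the filter. In the ubAPE1 line 6 were lower and 1 higher, with 16 not past the threshold, and in the wtAPE1 line 6 were lower and 0 higher, with 17 not past it. The shares of all rows are those given above for lower rows, with 1.08% higher in the ubAPE1 and 1.62% in the wtAPE1 line. This list too was chosen with earlier results of these data known, so the shares do not test an excess. The 6 lower genes were the same in both lines. CXCR4, a chemokine receptor, had 4.90 log2 with and 4.89 without doxycycline in the ubAPE1 line, 4.80 and 4.72 in the wtAPE1 line, against 6.50 and 6.18 for the vector line. Every column of the APE1 lines lay under the filter value of 5.03 log2, so the row was kept through its vector columns. The CXCR4 call is counted among the 6, but on centred and on deposited values it is a description and no support. The line difference of CXCR4 was -1.34 ± 0.18 log2 in the ubAPE1 and -1.40 ± 0.18 in the wtAPE1 line (SE). The secreted glycoprotein gene STC2 had -1.07 and -0.93. The receptor kinase gene MET had -0.91 and -1.04, and the mTOR inhibitor gene DDIT4 -0.71 and -0.76. P4HA1, a collagen prolyl hydroxylase, had -0.65 and -0.82, and INSIG2, which holds back sterol synthesis, -0.59 and -0.80. Of these, the calls of CXCR4, STC2 and DDIT4 were also made on the values as deposited in both lines (limma adjusted p between 0.00257 and 0.0430), MET passed there in the wtAPE1 line, and P4HA1 and INSIG2 in neither. HMOX1, haem oxygenase, was the gene higher in the ubAPE1 line, by 0.62 ± 0.18 log2 (SE, limma adjusted p = 0.0159), and that call was lost on the values as deposited (limma adjusted p = 0.212). In the wtAPE1 line HMOX1 had 0.38 log2 (limma adjusted p = 0.206) and did not pass. PFKFB3, which makes an activator of glycolysis and was named after its values were seen, had 0.38 log2 in the ubAPE1 and 0.36 in the wtAPE1 line. It passed as higher with the gene length trend removed (limma adjusted p = 0.0491 and 0.0376). The median of the 23 genes was -0.08 log2 in the ubAPE1 and -0.14 in the wtAPE1 line.

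Glycolytic enzymes are raised by hypoxia in many cells, and here all but 1 of those tested were not called. Of 16 listed, 13 were measured above the filter, and ENO2, the neuronal enolase, was the gene called, lower at -2.47 ± 0.18 log2 in the ubAPE1 and -2.36 ± 0.18 in the wtAPE1 line (SE). The levels of ENO2 in the APE1 lines, 4.96 to 5.27 log2, lay around the filter value of 5.03 log2. The other 12 were not called in either line, and the medians were 0.10 log2 in the ubAPE1 and 0.05 in the wtAPE1 line. Of all rows, 4.64% passed in the ubAPE1 and 5.65% in the wtAPE1 line, so most rows of any list are not called. With doxycycline 12 of 13 lay above 0 in the common effect, with a median of 0.12 log2 against 0.02 for all rows. The share of all rows above 0 in this effect was not counted, so the 12 of 13 is a description only. PGK1 had the highest value, at 0.41 ± 0.15 (SE), and 0 passed in limma. Within the lines, responses lay above 0 for 11 of 13 genes in the ubAPE1, 12 in the wtAPE1 and 11 in the vector line. Of all rows, 45.4%, 52.3% and 46.1% lay under 0 in that order.

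**Figure D4:**
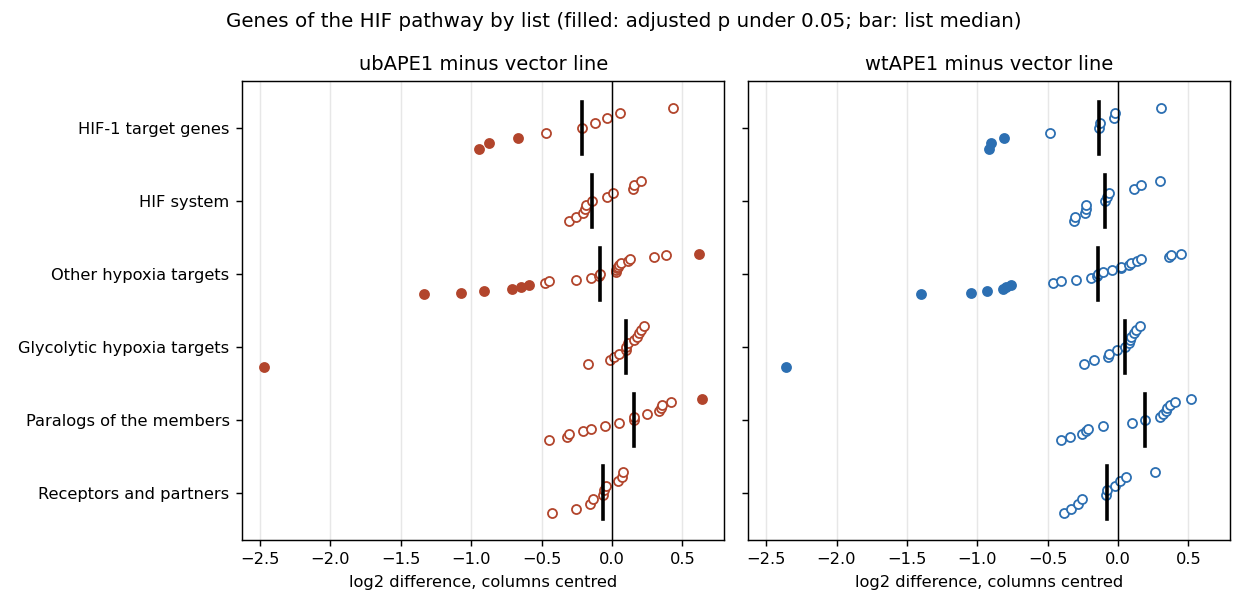
Line differences from the vector line (log2, columns centred) of the genes above the filter in 6 lists, ubAPE1 left and wtAPE1 right. Each point is a gene, filled where its adjusted p was under 0.05, and the bar is the list median. The filled points lie on the lower side in the HIF-1 and other hypoxia target lists except for HMOX1 in the ubAPE1 line, ENO2 is the filled glycolytic point, and the HIF system holds none.

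Close relatives of the members were called in 1 case, where 4.64% of all rows passed in the ubAPE1 and 5.65% in the wtAPE1 line. Of 19 listed paralogs, 15 were measured above the filter, and NDRG2 was called, higher in the ubAPE1 line by 0.64 ± 0.18 log2 (SE, limma adjusted p = 0.0108), a call lost on the values as deposited (limma adjusted p = 0.324). In the wtAPE1 line NDRG2 had 0.51 log2 (limma adjusted p = 0.0612), and passed with the gene length trend removed (limma adjusted p = 0.0363). The list medians were 0.15 log2 in the ubAPE1 and 0.19 in the wtAPE1 line. BHLHE41, the closest relative of BHLHE40, had -0.45 log2 in the ubAPE1 line (limma adjusted p = 0.158) and -0.40 in the wtAPE1 line (limma adjusted p = 0.173). With the gene length trend removed it passed in the ubAPE1 line (limma adjusted p = 0.0344). LOXL2, another lysyl oxidase, had 0.35 and 0.37, and PDK3 had -0.15 and -0.21. BHLHE41, LOXL2 and PDK3 were named after their values were seen. The receptors and partners, 15 in all, hold the receptors of VEGFA and ADM and the pyruvate dehydrogenase complex that PDK1 acts on. In this list 10 were above the filter and 0 were called, which says little at the shares of all rows given for the relatives. Its largest values were those of PDP1, the phosphatase that opposes PDK1, at -0.42 log2 in the ubAPE1 and -0.33 in the wtAPE1 line, and of NRP1, a VEGFA coreceptor, at -0.25 and -0.38.

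Among 9 genes listed for the redox role of APE1, 7 were above the filter. APEX1 passed as higher, at 0.71 ± 0.18 log2 for ubAPE1 minus vector (SE, limma adjusted p = 0.00290) and 0.66 ± 0.18 for wtAPE1 minus vector (SE, limma adjusted p = 0.00696), averaged over both doxycycline states, and neither call was made on the values as deposited. JUN, an AP-1 subunit, was lower in the ubAPE1 line, at -0.56 ± 0.18 log2 (SE, limma adjusted p = 0.0394, or 0.0996 as deposited). In the wtAPE1 line JUN had -0.45 log2 (limma adjusted p = 0.122) and did not pass. With the gene length trend removed JUN passed as lower in both lines (limma adjusted p = 0.00787 for ubAPE1 and 0.0222 for wtAPE1). With doxycycline the centred APEX1 differences from the vector line were 1.08 log2 for ubAPE1 and 1.11 for wtAPE1, and without it they were 0.34 and 0.21.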

How the data were processed

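Each array row holds 1 log2 value per group, deposited by the authors as the mean of 3 biological replicates, per the labels. That the scale is log2 follows from their range. How background was corrected, how arrays were normalized and whether rows were filtered before deposit is not stated in the material used. Genome build hg 18 is named in the submitters' processing notes. The platform's annotation gave 12616 of 15492 rows a single gene symbol, gave 2031 more than 1 symbol and gave 845 none, and genes are named from single-symbol rows.

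Rows with a mean at or above the 25th percentile of row means (5.03 log2) were kept (11619). Columns were centred on their median over these rows. A limma model (version 3.58.1, R 4.3.3; lmFit, eBayes) held terms for the line and for doxycycline and left 2 residual degrees of freedom. A model with a further term for the induced transgene left 1. Benjamini-Hochberg adjustment ran over all kept rows, at a threshold of 0.05. On centred columns limma estimated an infinite prior, so every row was tested with the same pooled variance and SE, and a gene's own scatter did not enter. On the values as deposited the prior had 6.28 degrees of freedom, and named calls that were lost there are stated beside the result. Differences between single columns carry no test, and 1.5-fold was used for counts.

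Named genes were the members, APEX1, list genes called in a test or else the 2 with the largest line difference, and the 3 rows most like each called member. The members and lists were chosen with earlier results of these data known. Simulated data with known changes were used to test the fits. Alternatives are given in the closing section.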

Additional observations from a re-analysis of the deposited data

Results flagged for a closer look

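Responses of opposite sign in 2 lines, at least 1.5-fold apart, were found for 2 of 9 members. Of all rows, 8.31% were at least 1.5-fold lower for the ubAPE1 minus the vector response, whatever the signs. For the ubAPE1 minus the wtAPE1 response that share was 6.15%. The differences were not tested, since each response is 1 column minus another. For KDM3A the response was -0.48 log2 in the ubAPE1 line and 0.27 in the vector line, a difference of -0.75. PDK1 responded by -0.52 with the fusion (ubAPE1), by 0.06 in wtAPE1 cells and by 0.18 in vector cells, which makes differences of -0.59 and -0.70. With the gene length trend removed, the differences were -0.62 for KDM3A, and for PDK1 -0.50 against the vector and -0.33 against the wtAPE1 line. Of these, the difference of KDM3A alone was still past 1.5-fold.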

How the results depend on the processing

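Of the 45 tested results of members, LOX and BHLHE40 against the vector line passed under every alternative that held their rows, and 0 called results changed sign. With the stricter filter (50th percentile, 6.16 log2), the rows of LOX and KDM3A were left out and gave no value. The PDK1 calls were lost on the values as deposited and with the variance prior of that fit applied to centred columns (adjusted p = 0.212 in the ubAPE1 and 0.119 in the wtAPE1 line). VEGFA passed with the length trend removed, and in the wtAPE1 line also without the ubAPE1 line (adjusted p = 0.00893). In the ubAPE1 line it did not pass without the wtAPE1 line (adjusted p = 0.230). With the prior of the deposited fit VEGFA passed in neither line (adjusted p = 0.327 in the ubAPE1 and 0.270 in the wtAPE1 line). Counts of rows moved more, and the cause was not tested. For ubAPE1 minus vector, 539 rows became 162 as deposited (10 higher, 152 lower, against 126 and 413), 298 with the filter at the 50th percentile and 136 with the other prior. For wtAPE1 minus vector, 656 rows became 245 as deposited (12 higher, 233 lower, against 188 and 468), 362 at the 50th percentile, 2296 without the ubAPE1 line and 167 with the other prior. For ubAPE1 minus wtAPE1, 1 row became 25 with no filter, and 0 as deposited, by quantile normalization, at the 50th percentile, with length removed and with the other prior. For the common doxycycline effect, 9 rows became 0 as deposited, 2 by quantile, 44 with no filter, 3 at the 50th percentile, 31 without the ubAPE1 line, and 4 without the wtAPE1 or the vector line. For induction beyond doxycycline, 0 rows became 12 with no filter and 1 at the 50th percentile. Rows past 1.5-fold in the ubAPE1 response were 518, or 1039 as deposited, and at 2-fold 14, 7 and 7 were left in the ubAPE1, wtAPE1 and vector lines. For ubAPE1 minus wtAPE1 responses 1386 became 2465 as deposited, and for wtAPE1 minus vector responses 454 became 711. The prior, and the alternatives for differences of responses, were chosen after seeing the data. No paired analysis was possible because each group is 1 averaged column with no replicate numbers. Signal over background is not known from averaged columns.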
